A study of Homo sapiens with 8 samples.

Results

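The insulin-like growth factor (IGF) signalling genes examined here comprised the ligand IGF2, the receptors IGF1R and INSR, the binding proteins IGFBP2, IGFBP3, IGFBP4, IGFBP5 and IGFBP6, and the receptor adaptors IRS1 and IRS2. They were found by matching the Ensembl identifiers of the count table to these 10 symbols, which gave 10 genes of the 37441 listed. Genes whose counts summed to 10 or more across all libraries were tested, 18203 in all, and 9 of the 10 were among them. IGFBP5 did not.

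RNA was sequenced from NCI-H1581 and NCI-H1703, human lines of non-small cell lung cancer whose growth is sensitive to CPL304110, an inhibitor of FGF receptors (FGFR). It was also sequenced from NCI-H1581R and NCI-H1703R, the variants of each that tolerate this inhibitor. Selection began at 50 nM and ended at 2.5 µM for NCI-H1581R and at 5 µM for NCI-H1703R. Every variant was grown, harvested 24 h after receiving new medium and sequenced in 2 replicates, which are repeats of the culture procedure, so the p-values measure the spread between such repeats. The sources used here do not state whether that medium held the inhibitor. Each resistant variant is 1 selected population of its line. An effect of long exposure to the inhibitor therefore cannot be told apart from other differences between that population and its parent. NCI-H1581 was kept in DMEM/F12 and NCI-H1703 in RPMI medium, both with serum, so line and medium cannot be told apart either.

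In this pathway, IGF1, IGF2 and insulin bind the receptor tyrosine kinases IGF1R and INSR, and the activated receptors phosphorylate IRS1 and IRS2, which dock PI3K and thereby activate AKT and mTOR. The secreted binding proteins hold IGFs in the medium and can either keep them from the receptors or prolong their supply. IGF1R signalling is known in tumour cells as a route that can sustain PI3K and AKT when another receptor kinase is blocked.

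The libraries held 33800389 to 40031710 counts. FGFR1, a receptor that the inhibitor targets, had 6839 to 6982 counts in NCI-H1581 and 1017 to 1383 in NCI-H1581R, and 26898 to 31031 in NCI-H1703 against 21044 to 21773 in NCI-H1703R. VIM, a mesenchymal marker, was abundant in all 8 libraries (2630 to 6710 CPM, counts per 1000000 of the library total after TMM scaling), whereas the 5 epithelial markers EPCAM, KRT8, KRT18, CDH1 and KRT19 summed to 6.76 to 75.6 CPM. The 4 other mesenchymal or fibroblast markers differed between lines and variants. DCN went from 48.9 and 43.4 CPM in NCI-H1581 to 0.239 and 0.0762 CPM in NCI-H1581R and LUM from 98.6 and 107 to 0.292 and 0.737 CPM, and both were at most 0.422 CPM in the NCI-H1703 variants. CDH2 went from 50.2 and 48.6 CPM in NCI-H1703 to 1.08 and 1.16 CPM in NCI-H1703R and was at most 3.53 CPM in the NCI-H1581 variants, where PDGFRA was 0.89 to 1.57 CPM against 1050 to 1300 CPM in the other line. The epithelial sum was 73.3 to 75.6 CPM in NCI-H1703 and 6.76 to 8.41 CPM in NCI-H1703R, and 19 to 22.7 CPM in NCI-H1581 against 13.1 to 15.1 CPM in NCI-H1581R. Most of the epithelial sum in NCI-H1703 was KRT18 (64.3 and 65.4 CPM there, 2.88 and 2.48 CPM in NCI-H1703R). The 4 squamous markers TP63, KRT5, KRT6A and DSG3 summed to 0.243 to 32.6 CPM, highest in NCI-H1581R. Nearly all of that sum was TP63 (6.26 and 5.79 CPM in NCI-H1581, 27.8 and 31.2 CPM in NCI-H1581R). KRT5, KRT6A and DSG3 were each at most 1.17 CPM in any library. The 4 neuroendocrine markers summed to 64.2 to 104 CPM in the NCI-H1581 variants and 8.61 to 18.4 CPM in the NCI-H1703 variants, nearly all of it SYP. Of the 4 lung alveolar or adenocarcinoma markers, NKX2-1 went from 13.6 and 15 CPM in NCI-H1581 to 40.1 and 59.5 CPM in NCI-H1581R. NAPSA, SFTPB and SFTPC were each at most 2.3 CPM in any library. The 3 immune and the 3 endothelial markers each summed to at most 0.449 CPM in any library.

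The changes of the IGF genes with resistance that passed the main test, which used no replicate block, were all decreases. With the replicate number as a block, which leaves fewer degrees of freedom, 34.9% of all genes tested were called in NCI-H1703R. IGF1R and IRS1 then also passed there as increases (log2 fold changes of 1.96 and 0.50, edgeR adjusted p of 0.0515 and 0.0124). IRS2 passed as a further decrease (-0.47, edgeR adjusted p of 0.0311). IRS1 passed there as an increase without the block too when 10 counts were required in each library (0.49, edgeR adjusted p of 0.0866). IGF2 and IGFBP2 were lower in the resistant variant of both lines, IRS1 was lower in NCI-H1581R, and IGFBP3 and IGFBP4 were lower in NCI-H1703R. In NCI-H1581R against NCI-H1581, 3 of the 9 tested genes were called by edgeR's quasi-likelihood test at an adjusted p under 0.1, all 3 lower, where 15.1% of all genes tested were called, 7.44% as lower and 7.63% as higher. In NCI-H1703R against NCI-H1703, 4 of the 9 were called, all 4 lower, against 14.7% of all genes, 7.67% as lower and 7.06% as higher. The median log2 fold change over the 9 genes was -0.51 in NCI-H1581R and -0.47 in NCI-H1703R, beside medians of 0.04 and 0 over all genes tested. In NCI-H1703R the 9 genes include IGFBP6, which had at most 1 count per library of that line. Without IGFBP6, the middle there lies between -0.47 for IRS2 and -0.76 for IGFBP2. IGF2 and IGFBP2 were the 2 genes called in both lines, and 615 of all genes tested were called in both. The receptors IGF1R and INSR did not pass the test in either line without the block, and INSR did not with it. In bulk RNA, fewer cells that express a gene and less of its RNA per cell cannot be told apart, and this holds for every decrease given here.

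**Figure D1:**
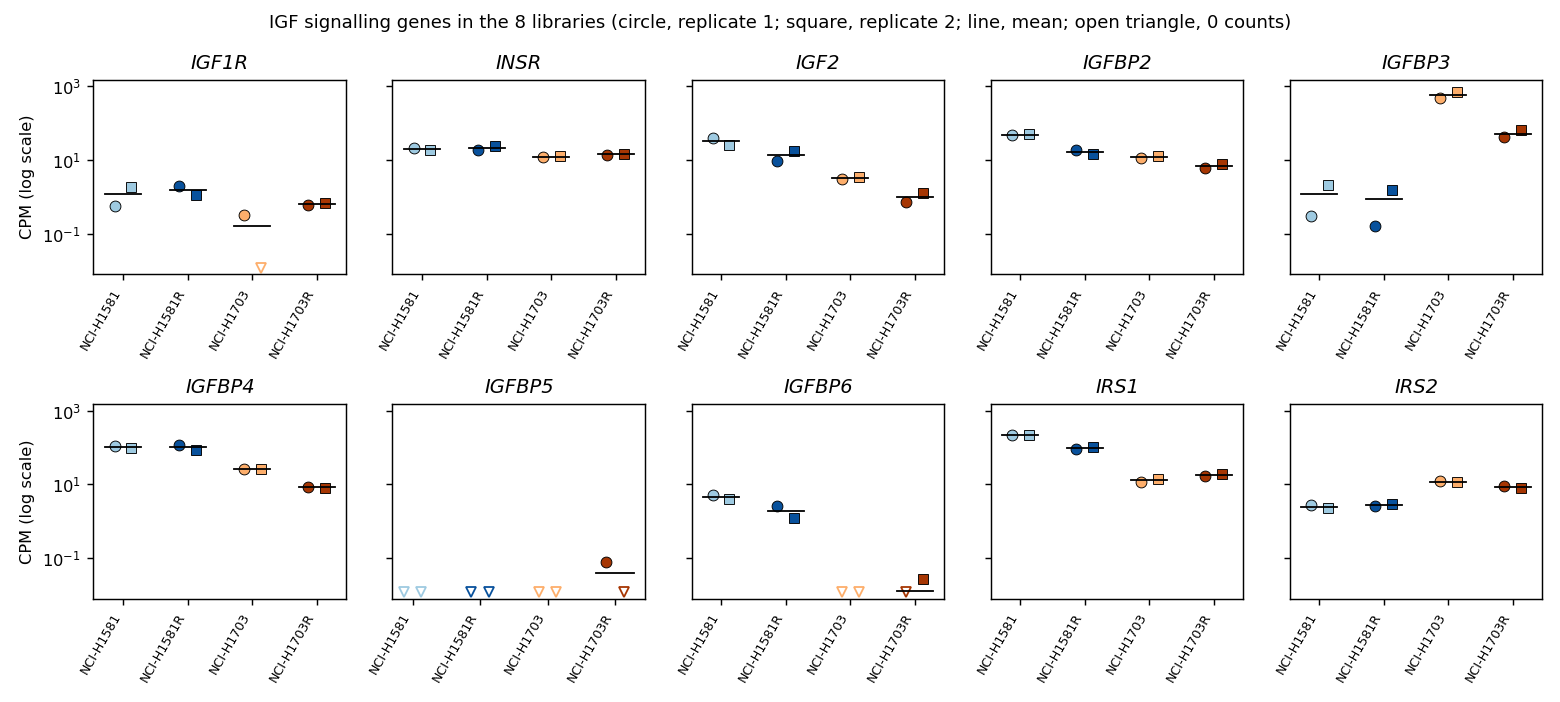
Level of each IGF signalling gene in the 8 libraries, in CPM on a log scale, with circles for replicate 1, squares for replicate 2, lines for the mean of the 2 replicates and open triangles at the lower edge for libraries with 0 counts. IGFBP3 spans 0.159 to 682 CPM, with NCI-H1703 highest, while INSR stays within 12.3 to 24.5 CPM.

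IGF2 (ENSG00000167244), the fetal growth factor that many tumours re-express, lies at chr11:2129112-2158391 on the minus strand of GRCh38. Replicates 1 and 2, in that order here and in all lists of values, held 38.6 and 24.9 CPM in NCI-H1581, 9.46 and 17.6 CPM in NCI-H1581R, 3.14 and 3.47 CPM in NCI-H1703, and 0.74 and 1.27 CPM in NCI-H1703R. In both lines each resistant library was lower than each sensitive library. IGF2 fell by 1.21 on the log2 scale in NCI-H1581R (SE 0.345, adjusted p = 0.0831, edgeR's quasi-likelihood test), and by 1.68 in NCI-H1703R (SE 0.359, adjusted p = 0.045). The replicates of NCI-H1581R differed, and the replicate-wise log2 ratios of resistant over sensitive were -2.03 and -0.50. The fibroblast markers DCN and LUM were lower in NCI-H1581R as well, and TP63 and NKX2-1 were higher. The part of these markers in the decreases of IGF2, IGFBP2 and IRS1 there was not tested. The NCI-H1581R call was lost when either NCI-H1581 replicate was left out (edgeR adjusted p of 0.396 without replicate 1 and 0.147 without replicate 2). The NCI-H1703R call was lost without NCI-H1703 replicate 1 (0.238), NCI-H1703 replicate 2 (0.261) or NCI-H1703R replicate 1 (0.162). The annotated exons of IGF2 share 2711 bp with the protein-coding gene ENSG00000284779 and 373 bp with the lncRNA ENSG00000240801, both on the same strand, and 333 bp with the antisense gene IGF2-AS, none of which is in the table used here. They also share 1460 bp with the readthrough gene INS-IGF2 on the same strand, which had 0 counts in all 8 libraries, so reads of IGF2 are uncertain where the counting could split them.

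The other ligands were scarce. IGF1, the growth factor that signals through the same receptor, had 0 to 13 counts per library, and INS, which encodes insulin, had 0 counts in all 8. A count of 0 allows up to 3 counts in a library, or 0.0749 to 0.0897 CPM, and this floor covers counting error alone.

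IGF1R (ENSG00000140443), the receptor for IGF1 and IGF2 at chr15:98648539-98964530 on the plus strand, was barely detected. It had 19 and 75 counts in NCI-H1581, 75 and 45 in NCI-H1581R, 12 and 0 in NCI-H1703, and 23 and 26 in NCI-H1703R. The 2 variants of NCI-H1581 overlapped, and the change was 0.31 on the log2 scale (SE 0.627, edgeR adjusted p = 0.823). Both NCI-H1703R libraries were higher than both NCI-H1703 libraries, and the log2 fold change of 1.94 had an SE of 0.882 and an edgeR adjusted p of 0.25. With the replicate number as a block, which treats same-numbered libraries as a culture round, that change passed the test (1.96, edgeR adjusted p = 0.0515). Its size rests on the library with 0 counts: without NCI-H1703 replicate 2, the log2 fold change was 1.04. At these counts a modest change of IGF1R was not detectable.

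INSR (ENSG00000171105), the insulin receptor at chr19:7112255-7294414 on the minus strand, was the more abundant receptor in every library. Its levels were 21.0 and 18.7 CPM in NCI-H1581, 18.3 and 24.5 CPM in NCI-H1581R, 12.3 and 12.5 CPM in NCI-H1703, and 13.9 and 14.5 CPM in NCI-H1703R. The log2 fold change with resistance was 0.12 in NCI-H1581R (SE 0.217, edgeR adjusted p = 0.798) and 0.23 in NCI-H1703R (SE 0.127, edgeR adjusted p = 0.342). In CPM per kb of the longest annotated transcript, the scale used here for levels between genes, IGF1R made up 0% to 7.76% of the summed level of both receptors. This share showed no order by variant in NCI-H1581 (2.03% and 7.18% against 7.76% and 3.49% in NCI-H1581R). It was 2% and 0% in NCI-H1703, and 3.27% and 3.53% in NCI-H1703R.

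IGFBP2 (ENSG00000115457) encodes a secreted binding protein with a preference for IGF2 and lies at chr2:216632828-216664436 on the plus strand. It held 48.6 and 49.5 CPM in NCI-H1581, 18.2 and 14.7 CPM in NCI-H1581R, 11.5 and 12.8 CPM in NCI-H1703, and 6.05 and 7.89 CPM in NCI-H1703R. All resistant libraries were lower than the sensitive libraries of their line. It fell by 1.57 on the log2 scale in NCI-H1581R (SE 0.188, edgeR adjusted p = 0.00336) and by 0.76 in the other resistant variant (SE 0.186, edgeR adjusted p = 0.0635). The decrease in NCI-H1581R passed the test without any 1 of the 4 libraries. The decrease in NCI-H1703R did not without NCI-H1703 replicate 1 (edgeR adjusted p = 0.258), NCI-H1703 replicate 2 (0.325) or NCI-H1703R replicate 1 (0.211).

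IGFBP3 (ENSG00000146674) encodes the main carrier of IGFs in blood, which also restrains growth independently of IGF in some cells. It lies at chr7:45912245-45921874 on the minus strand and had the largest change with resistance among the 10 genes in NCI-H1703R. Its counts were 18217 and 22811 in NCI-H1703 (492 and 682 CPM) and 1545 and 2408 in NCI-H1703R (40.8 and 63.6 CPM), without overlap. It fell by 3.47 on the log2 scale (SE 0.268, edgeR adjusted p = 0.00207), with a range of -3.82 to -3.17 when 1 library was left out. The summed epithelial markers and the mesenchymal marker CDH2 were lower in NCI-H1703R too, with the values given above, and their part in this result and in those of IGF2, IGFBP2 and IGFBP4 was not tested.

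In the NCI-H1581 variants IGFBP3 had few and uneven counts, with 10 and 84 in NCI-H1581 and 6 and 62 in NCI-H1581R. The replicates of a variant differed more than the variants did, and the change of -0.51 on the log2 scale had an SE of 1.04 and an edgeR adjusted p of 0.828. The higher value was in replicate 2 of both variants. KRT5, a keratin of basal epithelium, had 0 or 1 counts in all 4 libraries of replicate 1 and 47, 41, 35 and 38 in those of replicate 2, and was the 1 gene of the table with over 20 counts in every replicate 2 library and at most 3 in every replicate 1 library. Its part in the IGFBP3 values was not tested.

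IGFBP4 (ENSG00000141753) encodes a binding protein that keeps IGFs from their receptors until the protease PAPPA cleaves it, and lies at chr17:40443450-40457725 on the plus strand. It held 112 and 95.5 CPM in NCI-H1581, 116 and 85.8 CPM in NCI-H1581R, 26.2 and 26.3 CPM in NCI-H1703, and 8.49 and 8.13 CPM in NCI-H1703R. The 2 variants of NCI-H1581 overlapped, whereas the NCI-H1703R libraries were lower than both NCI-H1703 libraries. The log2 fold change was -0.03 in NCI-H1581R (SE 0.197, edgeR adjusted p = 0.969). It fell by 1.63 in NCI-H1703R (SE 0.123, edgeR adjusted p = 0.00197), with a range of -1.65 to -1.60 when 1 library was left out.

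The promoters of IGFBP3 and IGFBP4 are shown because these 2 genes had the largest decreases in NCI-H1703R of the 4 called, apart from IGF2, for which no promoter is in the table used. Both sequences are from RefSeq (GRCh38.p14), 5′ to 3′ on the gene's strand, from 250 bases before the start to 50 after it. Capitals mark a TATA box (TATAAA or TATATA) and GC boxes (GGGCGG), each searched on both strands.
IGFBP3 promoter, chr7:45921223-45921522, minus strand: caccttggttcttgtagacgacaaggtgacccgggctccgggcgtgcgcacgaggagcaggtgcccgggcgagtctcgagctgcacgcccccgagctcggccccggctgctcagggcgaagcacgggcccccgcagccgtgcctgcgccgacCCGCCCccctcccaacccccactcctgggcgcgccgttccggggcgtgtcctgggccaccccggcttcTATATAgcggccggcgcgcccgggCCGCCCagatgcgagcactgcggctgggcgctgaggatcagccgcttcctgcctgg
IGFBP4 promoter, chr17:40443200-40443499, plus strand: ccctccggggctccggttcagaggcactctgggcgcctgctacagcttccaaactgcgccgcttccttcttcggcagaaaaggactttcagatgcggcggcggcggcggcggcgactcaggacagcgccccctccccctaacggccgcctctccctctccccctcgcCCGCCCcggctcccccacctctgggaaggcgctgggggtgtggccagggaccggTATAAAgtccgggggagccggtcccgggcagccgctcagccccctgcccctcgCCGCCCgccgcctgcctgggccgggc
A TATA box begins 30 bases before the start of IGFBP3 and 29 bases before that of IGFBP4. None of the other 7 IGF genes with a promoter in the table had these letters in the window, which 13.7% of all 35116 promoters hold. GC boxes stand at 2 positions in each of both sequences and are held by 45% of all promoters. GC content was 74.7% for IGFBP3 and 74% for IGFBP4, beside a median of 58.7%. These matches describe the letters in the window and say nothing of what binds there.

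IGFBP6 (ENSG00000167779), a binding protein with a strong preference for IGF2 at chr12:53097436-53102345 on the plus strand, was detected in NCI-H1581 and its variant. Its counts there were 172 and 157 in NCI-H1581 and 95 and 48 in NCI-H1581R, without overlap. The log2 fold change was -1.26 (SE 0.417, edgeR adjusted p = 0.122), and with the replicate block it passed the test (-1.29, edgeR adjusted p = 0.0631), as it did without NCI-H1581R replicate 1 (-1.86, edgeR adjusted p = 0.0325). In the 4 libraries of NCI-H1703 and NCI-H1703R it had 0 counts except for 1 count in NCI-H1703R replicate 2, so no fold change with resistance is given there. IGFBP5 (ENSG00000115461), a binding protein of muscle and bone at chr2:216672105-216695549 on the minus strand, had 0 counts in 7 libraries and 3 in NCI-H1703R replicate 1. It lies 7668 bp from IGFBP2 on the opposite strand.

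**Figure D2:**
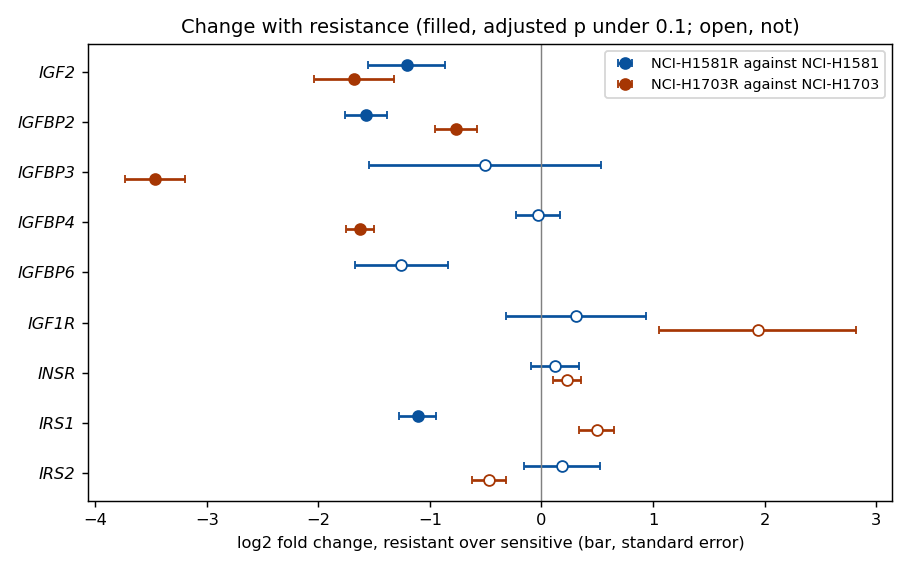
Change of the IGF signalling genes with resistance, as log2 fold change of resistant over sensitive (x axis) with its standard error, in NCI-H1581R (blue) and NCI-H1703R (brown), with filled points for an adjusted p under 0.1 in edgeR's quasi-likelihood test. Filled points lie to the left of 0 in both lines, from -0.76 for IGFBP2 to -3.47 for IGFBP3 in NCI-H1703R. IGFBP5 was not tested, and no value is drawn for IGFBP6 in NCI-H1703R.

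As a set, the 5 binding proteins changed in make-up between lines and variants. Their summed RNA level was 66.1 and 58.6 CPM per kb in NCI-H1581, 58.8 and 43.9 in NCI-H1581R, 202 and 274 in NCI-H1703, and 20.8 and 29.7 in NCI-H1703R. The NCI-H1703R libraries were thus the lowest of all 8 and the NCI-H1703 libraries the highest. IGFBP3 formed 92.8% and 94.6% of the sum in NCI-H1703 and 74.8% and 81.5% in NCI-H1703R. In NCI-H1581, IGFBP4 formed 76.6% and 73.8% of the sum and IGFBP2 16.7% and 19.1%. In NCI-H1581R, IGFBP4 formed 89.3% and 88.7% of the sum and IGFBP2 stood at 7.00% and 7.58%, although the level of IGFBP4 itself overlapped between these variants. These shares are a description with no test, and they depend on the gene length used. Per kb of all annotated exons, IGFBP3 held 8.94 and 13.9 CPM in NCI-H1703R, against 15.5 and 24.2 on the scale used here. IGFBP4 held 3.85 and 3.69 there on both scales.

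**Figure D3:**
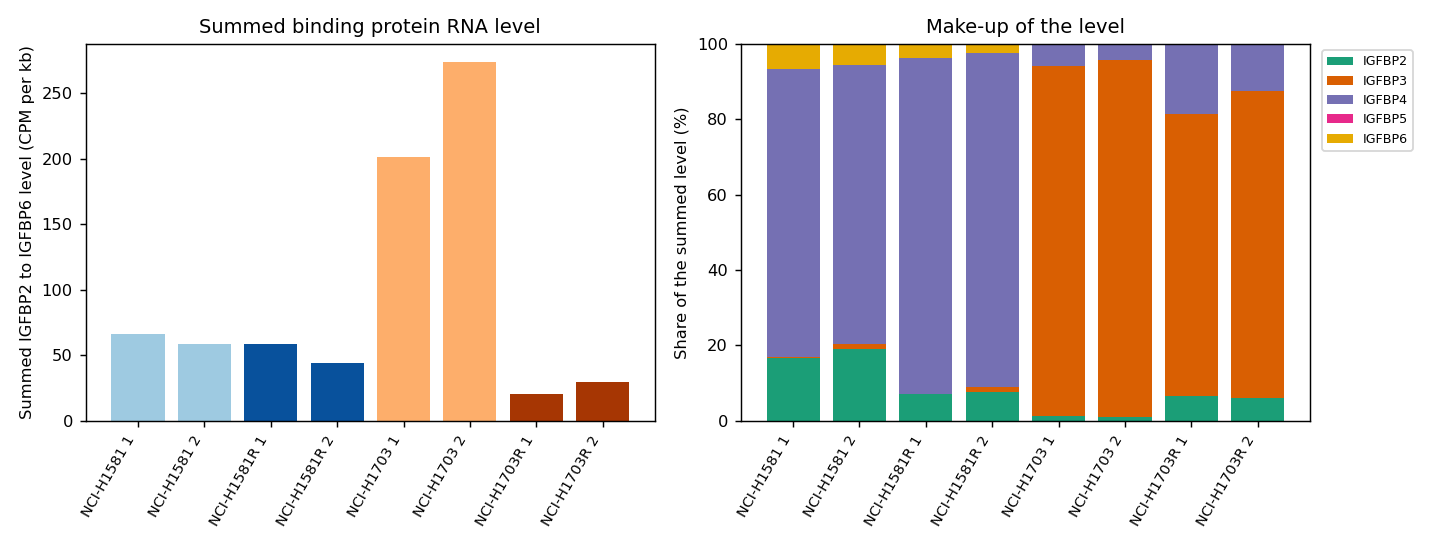
Left, summed level of IGFBP2 to IGFBP6 in each library in CPM per kb. Right, the share of each binding protein in that sum in percent. The sum is 202 and 274 CPM per kb in NCI-H1703 and 20.8 and 29.7 in NCI-H1703R, and IGFBP3 makes up most of it in both, while IGFBP4 makes up most of it in NCI-H1581 and NCI-H1581R.

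IRS1 (ENSG00000169047), the docking protein that carries the signal of both receptors to PI3K, lies at chr2:226731312-226799820 on the minus strand. It was abundant in NCI-H1581, with 220 and 212 CPM, and lower in NCI-H1581R, with 93.4 and 105 CPM. In the other line it held 11.6 and 14.4 CPM in NCI-H1703, and 17.2 and 18.6 CPM in NCI-H1703R. The variants did not overlap in either line, but the order was opposite. IRS1 fell by 1.11 on the log2 scale in NCI-H1581R (SE 0.163, edgeR adjusted p = 0.00809), a call lost without NCI-H1581 replicate 1 (0.125) or replicate 2 (0.119). In NCI-H1703R its log2 fold change was 0.50 (SE 0.156, edgeR adjusted p = 0.12), and with the replicate block it passed the test (adjusted p = 0.0124).

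The IRS1 promoter is shown because IRS1 moved in opposite directions in the 2 lines, and the difference passed the interaction test given with the comparison of the lines. It is from RefSeq (GRCh38.p14), 5′ to 3′, over the same window, with GC boxes (GGGCGG) and an E-box (CACGTG) in capitals.
IRS1 promoter, chr2:226799771-226800070, minus strand: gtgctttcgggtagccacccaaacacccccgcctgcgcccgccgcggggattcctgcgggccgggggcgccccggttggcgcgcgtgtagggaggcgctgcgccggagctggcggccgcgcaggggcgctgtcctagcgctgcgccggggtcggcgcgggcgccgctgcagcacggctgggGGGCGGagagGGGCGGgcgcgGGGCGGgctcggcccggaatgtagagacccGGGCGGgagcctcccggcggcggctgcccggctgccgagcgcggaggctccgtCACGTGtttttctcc
It holds 4 GC boxes and, beginning 35 bases after the start, the only E-box among the IGF genes with a promoter in the table. Of all promoters 7.26% hold that motif. GC content was 79.3%.

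IRS2 (ENSG00000185950), the adaptor that is most prominent in liver and pancreatic islets, lies at chr13:109752695-109786583 on the minus strand. It had 91 and 91 counts in NCI-H1581, 96 and 119 in NCI-H1581R, 460 and 379 in NCI-H1703, and 337 and 299 in NCI-H1703R. In NCI-H1581R the log2 fold change was 0.18 (SE 0.343, edgeR adjusted p = 0.806). In NCI-H1703R both libraries were below both NCI-H1703 libraries, at a log2 fold change of -0.47 (SE 0.155, edgeR adjusted p = 0.133). With the replicate block that change passed the test as well (-0.47, edgeR adjusted p = 0.0311). Per kb, IRS1 was 98.6% and 98.7% of the summed IRS1 and IRS2 level in NCI-H1581 and 96.8% and 96.7% in NCI-H1581R. It was 43.8% and 51.4% in NCI-H1703 and 61.7% and 66.3% in NCI-H1703R.

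With the replicate block the number of IGF genes called in NCI-H1703R was 7 of 9, where 34.9% of all genes tested were then called. IGF1R, IRS1 and IRS2 joined the 4 others, so 2 of the 7 were higher and 5 lower.

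Whether the change with resistance differed between the lines was tested as an interaction in a fit of all 8 libraries, in which 15.4% of all genes tested were called. Of the 9 IGF genes 3 were called: IRS1, IGFBP4 and IGFBP2. The log2 fold change of IRS1 was higher in NCI-H1703R by 1.59 (SE 0.2, edgeR adjusted p = 0.0018). IGFBP4 had a difference of -1.62, the decrease being in NCI-H1703R (SE 0.246, edgeR adjusted p = 0.00461). Both passed the test without any 1 of the 8 libraries.

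The decrease of IGFBP2 was smaller in NCI-H1703R by 0.78 (SE 0.254, edgeR adjusted p = 0.0962), and this call was lost without any 1 library except NCI-H1581R replicate 1 (edgeR adjusted p from 0.105 to 0.349). For IGFBP3 the difference was -2.98 with an SE of 1.14 and an edgeR adjusted p of 0.157. With a replicate block within each line it was -3.04 and passed the test (edgeR adjusted p = 0.00436). It passed too without NCI-H1581 replicate 2 (-5.05, adjusted p = 0.0851) or NCI-H1581R replicate 1 (-3.80, adjusted p = 0.0765). Without NCI-H1581R replicate 2 the difference was -0.53 (adjusted p = 0.991), so its size rests on the few counts of IGFBP3 in the NCI-H1581 variants. For IGF2, called lower in both lines, the difference of -0.49 had an SE of 0.665 and an edgeR adjusted p of 0.763.

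The lines differed from each other at all 9 tested genes, by a median of 2.88 (log2, regardless of sign) between the sensitive lines, beside 0.51 and 1.63 with resistance in NCI-H1581R and NCI-H1703R. The same medians over all genes tested were 0.936, 0.421 and 0.294. The value of 1.63 in NCI-H1703R includes IGFBP6, which had at most 1 count per library of that line. Without IGFBP6, the middle lies between 0.76 for IGFBP2 and 1.63 for IGFBP4. Between the sensitive lines all 9 tested IGF genes were called, where 62.9% of all genes tested were, and 2 were higher in NCI-H1703 and 7 in NCI-H1581. The level of IGFBP3 in NCI-H1703 exceeded that in NCI-H1581 by 8.85 log2 units (SE 0.403, edgeR adjusted p = 1.88e-06), a value that was 8.13 without NCI-H1581 replicate 1 and 10.93 without replicate 2, and IRS2 by 2.27 (SE 0.221, edgeR adjusted p = 9.49e-05). IRS1 was lower there, with a log2 fold change of -4.06 (SE 0.135, edgeR adjusted p = 4.19e-07), as was IGF2 with -3.26 (SE 0.273, edgeR adjusted p = 4.29e-05). IGFBP2 and IGFBP4 stood at -2.02 and -1.98 and INSR at -0.68 (edgeR adjusted p of 1.15e-05, 6.85e-06 and 0.00538). IGFBP6 was at least 52.8-fold higher in NCI-H1581, against a floor of 3 counts per library. IGF1R, at -2.88 (edgeR adjusted p = 0.0476), lost its call without NCI-H1581 replicate 2 (-1.71, 0.141) or NCI-H1703 replicate 2 (-1.98, 0.17).

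Between the resistant variants the same 9 genes were called in the same directions, where 52.5% of all genes tested were called. The level of IGFBP3 in NCI-H1703R exceeded that in NCI-H1581R by 5.92 log2 units (SE 0.665, edgeR adjusted p = 0.00169), a value that was 5.01 without NCI-H1581R replicate 1 and 8.35 without replicate 2, and IRS2 by 1.63 (SE 0.256, edgeR adjusted p = 0.00538). IGF2 stood at -3.71, IGFBP4 at -3.56, IRS1 at -2.43 and IGFBP2 at -1.20 (edgeR adjusted p of 0.00254, 2.11e-04, 2.43e-04 and 0.0118). IGFBP6 was at least 23.6-fold higher in NCI-H1581R. The calls of IGF1R (-1.23, edgeR adjusted p = 0.0956) and INSR (-0.56, edgeR adjusted p = 0.0825) were close to the threshold. With the replicate block their adjusted p was 0.138 and 0.185. IGF1R lost its call without NCI-H1581R replicate 1 (adjusted p = 0.218), NCI-H1703R replicate 1 (0.271) or NCI-H1703R replicate 2 (0.197). INSR lost it without NCI-H1581R replicate 2 (0.162), NCI-H1703R replicate 1 (0.339) or NCI-H1703R replicate 2 (0.267), and IGFBP2 lost it without NCI-H1703R replicate 1 (0.107).

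Around these genes, 53 further genes of the pathway were listed in 6 groups, and 47 passed the filter. In NCI-H1581R 13 of the 47 (27.7%) were called, 8 higher and 5 lower, against 15.1% of all genes. In NCI-H1703R 9 (19.1%) were called, 4 higher and 5 lower, against 14.7%. With the replicate block 20 of the 47 were called there, where 34.9% of all genes tested were. In NCI-H1581R the block called 13 of the 47, where 3293 of all 18203 genes tested were called. Among the other ligands, receptors and carriers, 3 of 7 were tested. IGF2R, the receptor that takes IGF2 up for degradation, rose by 0.78 in NCI-H1703R, from 10458 and 9629 to 17642 and 18657 counts (edgeR adjusted p = 0.00752). IGFBP1 had 0 counts in all 8 libraries. IGFBP7, named after its values were seen, a distant relative that binds IGFs weakly, went from 51 and 36 counts in the sensitive libraries of NCI-H1581 to 0 and 1 in the resistant ones and was thus at least 15.5-fold lower (edgeR adjusted p = 0.0231).

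Of 7 proteases of the binding proteins and their inhibitors, 6 were tested, with 2 called higher and 1 lower in NCI-H1581R and 1 lower in NCI-H1703R. PAPPA, the IGFBP4 protease, had 0 counts in 7 libraries and 1 in NCI-H1703R replicate 1. STC2, an inhibitor of PAPPA, rose by 2.13 in NCI-H1581R, from 228 and 332 to 932 and 1600 counts (edgeR adjusted p = 0.00725). ADAM9, a membrane metalloprotease, fell in both lines, by 1.004 in NCI-H1581R (edgeR adjusted p = 0.0105) and by 0.58 in NCI-H1703R (edgeR adjusted p = 0.0421). ADAM12, which cleaves IGFBP3 and IGFBP5 and is named after its values were seen, went from 0 and 3 counts in NCI-H1581 to 113 and 91 in its resistant variant and was thus at least 32.4-fold higher (edgeR adjusted p = 0.00313).

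All 12 receptor adaptors and docking proteins were tested. In NCI-H1581R 2 were called higher and 1 lower, and in NCI-H1703R 1 higher and 1 lower. SHC1, which links receptors to RAS, fell by 0.88 in NCI-H1581R (edgeR adjusted p = 0.0423). SOCS3, an inhibitor of cytokine and insulin signalling, fell by 1.39 in NCI-H1703R, from 5110 and 4872 to 1697 and 2311 counts (edgeR adjusted p = 0.00585). GRB10, an adaptor that restrains both receptors, rose there by 0.46 (edgeR adjusted p = 0.0294). GRB14, a related inhibitor of the insulin receptor named after its values were seen, had 13 and 6 counts in NCI-H1581 and 206 and 217 in NCI-H1581R (log2 fold change 4.403, edgeR adjusted p = 0.00257).

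Of the 10 PI3K and AKT genes, 1 was called higher and 1 lower in NCI-H1581R, and 2 higher and 1 lower in NCI-H1703R. PIK3R3, a regulatory subunit of PI3K, rose by 0.75 in NCI-H1581R (edgeR adjusted p = 0.0506). PIK3CA, a catalytic subunit, rose by 0.52 in NCI-H1703R (edgeR adjusted p = 0.0931).

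Of the 13 genes of the mTOR complex, FOXO factors and effectors, 3 were called higher and 1 lower in NCI-H1581R and 1 lower in NCI-H1703R. FOXO4, a transcription factor that AKT keeps out of the nucleus, rose by 1.54 in NCI-H1581R (edgeR adjusted p = 0.0201). EIF4EBP1, the translation repressor that mTOR inactivates, fell in both lines. Its counts went from 9129 and 9777 to 4241 and 3598 in NCI-H1581R (log2 fold change -1.33, edgeR adjusted p = 0.00566), and from 12466 and 11263 to 7805 and 9350 in NCI-H1703R (-0.54, edgeR adjusted p = 0.0385). The paper reports that both resistant variants also held fewer DNA copies of EIF4EBP1. The part of copy number in these decreases was not tested. Of the 3 tested IGF2 mRNA binding proteins, IGF2BP1 fell by 0.49 in NCI-H1703R (edgeR adjusted p = 0.0507) and none was called in NCI-H1581R, where 0 of the 3 had an unadjusted p under 0.05 and DESeq2 called 0. The RNA of H19 was not analysed here.

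**Figure D4:**
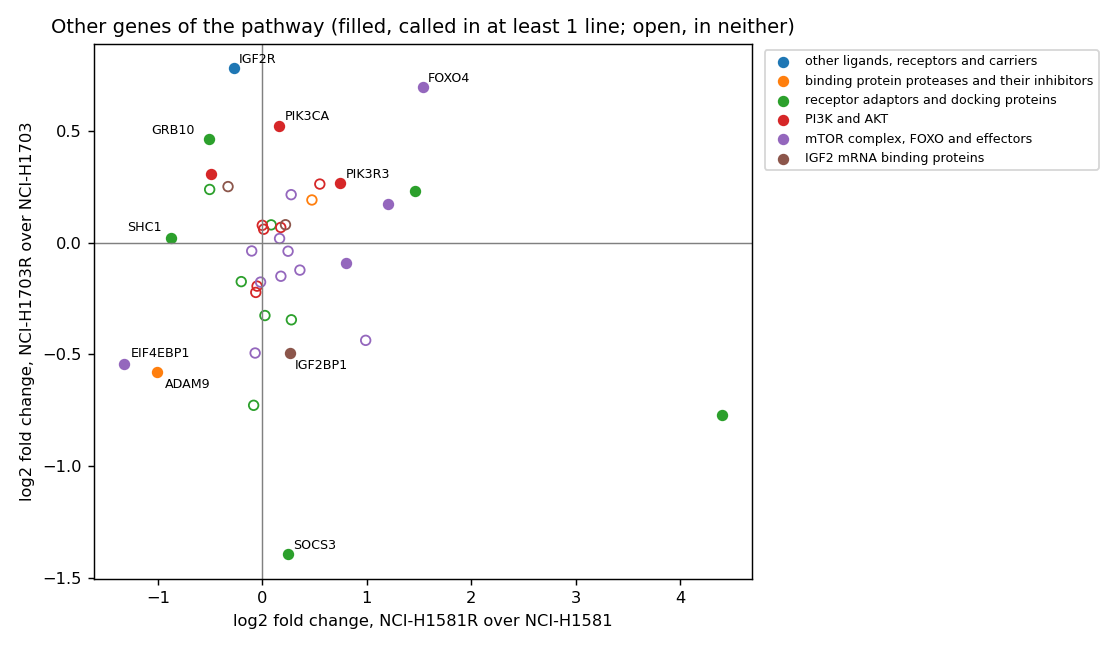
Log2 fold change of the other pathway genes in NCI-H1581R over NCI-H1581 (x axis) and NCI-H1703R over NCI-H1703 (y axis), coloured by group, with filled points for genes called in at least 1 line. Of the 47 tested genes 39 are drawn, and 7 that had at most 3 counts in both libraries of a variant are not. EIF4EBP1 and ADAM9 lie below 0 on both axes, and SOCS3 is the lowest point for NCI-H1703R, at -1.39.

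Genes near the IGF genes are given as background to these changes. For the 6 tested genes starting within 1 Mb of IGFBP3 the median change (log2) in NCI-H1703R was -0.23 and for those around IGFBP4 (32 tested) it was 0.13, beside changes of -3.47 and -1.63 for the 2 genes themselves. Around IGFBP2 the 7 tested neighbours had medians of 0.61 in NCI-H1581R and -0.14 in NCI-H1703R. The 24 neighbours of IGF2 had medians of -0.26 and 0.27. Around IRS1 the 6 neighbours had medians of 0.08 and -0.72, with 1 called lower in NCI-H1703R. Around IRS2 the 6 neighbours had a median of -0.78 in NCI-H1581R, where 4 were called lower and IRS2 itself stood at 0.18. Neighbours share a region and are not replicates, so these medians carry no test.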

How the data were processed

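Per the submitters' processing notes, the authors trimmed reads with cutadapt and used Salmon with GRCh38 to quantify transcripts, which were then added up by gene. The deposited table holds estimated counts as whole numbers, without normalisation. The versions, the transcript annotation and the strand setting are not given in the sources used here. Where counting ignored strand, a gene and its antisense partner cannot be told apart.

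Groups came from the labels. Counts were tested with edgeR 4.0.16 in R 4.3.3 (TMM, quasi-likelihood test, two-sided, default settings), for genes whose counts over all libraries summed to 10 or more. Resistance was tested in each line's own 4 libraries, the lines in the 4 sensitive or 4 resistant libraries, and the difference between lines as an interaction over all 8. A gene was called at a Benjamini-Hochberg adjusted p under 0.1 over all 18203 genes. The SE is the log2 fold change divided by the square root of F. CPM use TMM factors over all 8 libraries. Positions and lengths came from GENCODE v44, which matched 17177 of the tested genes. The code of the main tests was tested on simulated counts that held no effect of the replicate number. The alternatives given below were not run on them.

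The growth protocol states that the culture procedure was repeated for the second replicate, so same-numbered libraries may share a round. The labels do not state that they do. Over 11174 genes, replicate differences correlated between the variants of a line (Pearson's r was 0.196 for NCI-H1581, 0.406 for NCI-H1703), and r was -0.452 to -7.88e-04 between variants of different lines. Replicates differed by more than sampling noise (chi-square per degree of freedom of 24.6 to 103).

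The genes and lists were chosen with earlier results of these data known. Named are all 10 IGF genes and, for each pathway list and line, up to 2 called genes with the largest change among those with a mean of at least 5 CPM. Of the pathway genes that this selects, 1 is neither reported nor drawn here. Alternatives were DESeq2 1.42.0, RLE normalisation, other filters, the replicate block, legacy quasi-dispersions, a joint fit of all 8 libraries, a threshold of 0.05 and leaving out each replicate. With a replicate left out, the lone library of a variant is assumed to vary like the others.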

Additional observations from a re-analysis of the deposited data

Results flagged for a closer look

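For 3 of the 9 tested IGF genes the change with resistance differed between the lines by the interaction test. The difference, NCI-H1703 minus NCI-H1581 on the log2 scale, was 1.59 for IRS1 (edgeR adjusted p = 0.0018), -1.62 for IGFBP4 (edgeR adjusted p = 0.00461) and 0.78 for IGFBP2 (edgeR adjusted p = 0.0962). IRS1 was lower in both NCI-H1581R libraries and higher in both NCI-H1703R libraries than in the sensitive libraries of the line. IGFBP4 overlapped between the NCI-H1581 variants and was lower in NCI-H1703R. IGFBP2 was lower in both resistant variants. The lines were also grown in different media, which cannot be told apart from the line.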

How the results depend on the processing

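The number of IGF genes called in NCI-H1581R was 2 to 4 under the other settings and 1 to 4 when a replicate was left out, where 1122 to 5186 of all genes were called, against 2743 with all 4 libraries. In NCI-H1703R it was 7 with the replicate block, 3 to 5 under the other settings and 2 to 4 when a replicate was left out, where 274 to 1686 of all genes were called, against 2683. DESeq2 called 3 and 4, where it called 3223 and 3037 of all genes. With all 4 libraries kept, the other settings called 1793 to 4539 of all genes in NCI-H1581R. In NCI-H1703R the replicate block called 6357 of all genes and the other settings 1640 to 3185. The block also added IGFBP6 in NCI-H1581R and, within each line, IGFBP3 to the interaction, and ended the calls of IGF1R and INSR between the resistant variants. A block shared by both lines also added IGFBP3 to the interaction (edgeR adjusted p = 0.0833) and ended the interaction call of IGFBP2 (0.141). Legacy quasi-dispersions ended that call of IGFBP2 too (0.101). Beside these and the 3 genes added in NCI-H1703R, the block changed no call of an IGF gene. Of the pathway genes named, it added PIK3R3 (adjusted p = 0.0749) and FOXO4 (0.0576) in NCI-H1703R and ended no call. Requiring 10 counts in each library, which tests fewer genes, added IGFBP6 in NCI-H1581R (0.0684) and IRS1 in NCI-H1703R (0.0866). IGF2 in NCI-H1703R lost its call in the joint fit of all 8 libraries (adjusted p = 0.14), which added IGFBP6 in NCI-H1581R (0.0623). The cause was not tested. Between resistant variants, IGF1R was not called by DESeq2 (adjusted p = 0.196), without the low-count filter (0.113), with legacy quasi-dispersions (0.12) or in the joint fit (0.162).

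Leaving out a replicate turned the direction of some log2 fold changes that were not called. In NCI-H1581R these ranged from -0.27 to 1.47 for IGF1R, -0.12 to 0.32 for INSR, -2.98 to 1.56 for IGFBP3 and -0.25 to 0.15 for IGFBP4. In the interaction they ranged from -0.10 to 0.31 for INSR and -0.93 to 0.026 for IGF2. No other setting turned a direction. Depth limits IGF1R, IGFBP3 in NCI-H1581, IGFBP5 and IGFBP6 in NCI-H1703, and 2 replicates per variant limit all tests.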
